A study of Mus musculus with 4 samples.

Results

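Plasminogen activators are secreted proteases that cut plasminogen into plasmin, and plasmin in turn degrades fibrin and matrix proteins around a cell. The urokinase receptor uPAR, encoded by Plaur, holds the urokinase-type activator (uPA, Plau) on the cell surface and also signals through integrins, and it is known from migrating and tissue-remodelling cells. The tissue-type activator (tPA, Plat) is the other protease of the system, and serpins such as protease nexin-1 (Serpine2) and the intracellular Serpinb6a trap proteases of this kind. In the testis the system is known from the remodelling of the seminiferous epithelium, where Sertoli cells make both activators.

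The 5 genes described here, Plaur, Plau, Plat, Serpine2 and Serpinb6a, were taken by symbol from the 27514 genes listed in all 4 libraries. They were chosen by earlier values of these same libraries, in which Plaur stood out after busulfan, so their differences between conditions and between classes of spermatogonia are given as descriptions without a test.

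The data are single-cell RNA-seq of A_undiff, the undifferentiated spermatogonia that hold the spermatogonial stem cells and their progenitors. They were sorted from the testes of adult wild-type C57BL/6J mice 6 to 8 weeks old, as cells positive for E-cadherin and CD49f and negative for c-KIT. The mice were untreated (CTRL), or had received a single dose of 10 mg/kg busulfan 10 days before harvest (BU). Per the paper, this alkylating drug kills both undifferentiated and differentiating spermatogonia by apoptosis, and such a dose spares some A_undiff. Every library was made from the pooled cells of 3 mice, and there were 2 experiments, the first with the libraries CTRL 1 and BU 1 and the other with CTRL 2 and BU 2. A comparison therefore had n = 2 libraries per group, p-values measure only the spread between these libraries, and the animals within a pool cannot be told apart.

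Cells with over 1000 detected genes and under 20% mitochondrial counts were kept, which left 7493 cells, of which 3101 were from CTRL 1, 1120 from CTRL 2, 2008 from BU 1 and 1264 from BU 2. The paper also removed clusters of somatic cells, of spermatids and of cells with high Kit, a step not taken here. The 4 libraries held 21136369 to 53579969 counted molecules (unique molecular identifiers, UMIs), and the median cell held 8051 and 9847.5 UMIs in experiment 1 but 30845 and 34023 in experiment 2. A cell was called Gfra1+ (a stem cell marker), Sox3+ (a progenitor marker) or Kit+ (a differentiation marker) where the natural log of 1 plus the gene's UMIs per 100000 was above 2. This gave 585, 214, 866 and 529 Gfra1+ cells in CTRL 1, CTRL 2, BU 1 and BU 2, then 1470, 646, 473 and 265 Sox3+ cells, and 36, 37, 322 and 156 Kit+ cells, in the same order used for all values of 4 libraries here. The classes overlap, and 150, 78, 100 and 57 cells were both Gfra1+ and Sox3+. The fixed stem markers summed to 476, 550, 692 and 849 CPM (counts per 1000000 UMIs) in Gfra1+ cells against 78.5, 94.8, 159 and 255 CPM in Sox3+ cells. The progenitor markers ran the other way, at 200, 177, 51.9 and 58.9 CPM in Gfra1+ and 681, 554, 258 and 221 CPM in Sox3+ cells. The stem markers include Gfra1 and the progenitor markers Sox3, so this order was partly fixed by the rule that made the classes. Stem markers were higher and progenitor markers lower in BU within each class.

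Some cells and libraries stood apart. CTRL 2 and BU 2 shared 677 cell barcodes, against 11 shared by CTRL 1 and BU 1, and in each of the 677 the poorer library held 0.970 to 1.93% of the UMIs of the richer one. After the filters 70 such poor copies were kept (45 in CTRL 2 and 25 in BU 2), which held 0 Plaur UMIs. Leaving out all shared barcodes removed 9, 224, 9 and 523 kept cells, most of them not poor copies. Whether a call lost in that setting reflects the barcodes or the fewer counts was not tested. The 37 Kit+ cells of CTRL 2 carried Leydig cell markers at 6346 CPM, with all 5 markers detected, against 1.8 to 4.1 CPM in the Kit+ cells of the other libraries, and spermatid markers at 8580 CPM against 393 to 890. Gfra1+ cells of experiment 2 carried more Sertoli markers (177 CPM for CTRL 2, 125 for BU 2, but 70.7 for CTRL 1, 45.1 for BU 1) and more immune markers (83.8 and 57.9 against 3.8 and 8.8 CPM). Cells with UMIs of at least 3 of 26 somatic markers (75, 236, 59 and 266 cells) are called somatic-marked. The part that such RNA has in a result was tested only by leaving these cells out. The markers were counted at full depth, and the somatic-marked cells held a median of 9671, 43543, 8819 and 52385.5 UMIs. Leaving them out therefore also removed deep cells in experiment 2, and the effect of depth cannot be told apart from that of somatic RNA.

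The system's genes lie on separate chromosomes. On GRCm38, Plaur (ENSMUSG00000046223) spans chr7:24462484-24475968 on the plus strand, Plau (ENSMUSG00000021822) chr14:20836660-20843385 on the plus strand and Plat (ENSMUSG00000031538) chr8:22757727-22782844 on the plus strand. Serpine2 (ENSMUSG00000026249) spans chr1:79794197-79861180 and Serpinb6a (ENSMUSG00000060147) chr13:33917918-34002794, both on the minus strand. All are annotated as protein-coding genes. The library chemistry counts molecules at the 3′ end of a transcript, and closely related genes such as Serpinb6a and its neighbours Serpinb6b to Serpinb6d can share reads, so the Serpinb6a level is uncertain to that degree.

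Over all cells, Plaur and Serpine2 were the members with the largest differences between CTRL and BU, and the 250 bases before their RefSeq start (GRCm38.p6) are shown to place those values beside their promoters. Capitals mark a match to AP-1 (TGANTCA) or to the GC box (GGGCGG), 2 motifs chosen after the sequences were seen and searched on both strands.

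Plaur, chr7:24462233-24462482, plus strand: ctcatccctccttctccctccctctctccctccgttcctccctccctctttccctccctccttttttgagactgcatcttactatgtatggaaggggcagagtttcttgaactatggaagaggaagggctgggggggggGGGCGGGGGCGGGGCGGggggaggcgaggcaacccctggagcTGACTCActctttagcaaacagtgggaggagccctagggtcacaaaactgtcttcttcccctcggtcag

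Serpine2, chr1:79858666-79858915, minus strand: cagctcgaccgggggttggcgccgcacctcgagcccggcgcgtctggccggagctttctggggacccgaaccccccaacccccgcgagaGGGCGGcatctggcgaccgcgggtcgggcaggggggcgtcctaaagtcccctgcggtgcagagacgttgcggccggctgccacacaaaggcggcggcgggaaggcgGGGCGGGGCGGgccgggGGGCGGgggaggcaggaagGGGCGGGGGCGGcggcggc

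The Plaur promoter holds 1 AP-1 match, 69 bases before the start, and 3 GC boxes, with 59.6% G and C. AP-1 matches occur in 6.75% of the 32851 RefSeq promoters of this length and GC boxes in 32.7%. The Serpine2 window holds 6 GC boxes and 0 AP-1 matches, with 78.8% G and C. Neither window holds TATAAA, which 12.4% of the promoters hold. The Serpine2 window lies inside the gene span given above, so it precedes a start downstream of the annotated 5′ end of the gene. Other starts were not searched. These matches describe letters and not binding.

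Plaur, the receptor, was rare in every CTRL library and present in every BU library. Over all kept cells its CTRL level was 0.755 CPM (20 UMIs) and 0.782 CPM (30 UMIs) in the 2 experiments and its BU level 12.2 CPM (255 UMIs) and 13.1 CPM (684 UMIs). Both BU libraries stood far above both CTRL libraries, and the experiments gave nearly the same ratio of BU to CTRL, 16.1 (exact 95% interval 10.2 to 26.8) in experiment 1 and 16.7 (11.6 to 24.9) in experiment 2. The intervals here and for shares cover counting error only. The mean log2 difference of BU minus CTRL, with 0.5 CPM added, was 3.37 ± 0.049 (SD, n = 2 experiments). In such sums, more cells of a type that holds a transcript and more transcript per cell cannot be told apart.

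Within Gfra1+ cells, the Plaur level was 1.05 CPM (5 UMIs) and 2.08 CPM (14 UMIs) in CTRL 1 and CTRL 2 and 16.4 CPM (153 UMIs) and 18.5 CPM (449 UMIs) in BU 1 and BU 2. The groups did not overlap, with BU over CTRL at 15.6 (6.56 to 48.9) and 8.91 (5.25 to 16.4) in the 2 experiments. Its mean log2 difference was 3.17 ± 0.40 (SD, n = 2), and 3.11 without the shared barcodes. In Sox3+ cells the Plaur levels were 0.439 (6 UMIs), 0.475 (12 UMIs), 2.94 (15 UMIs) and 3.54 CPM (43 UMIs), which again left both BU libraries above both CTRL libraries, but below the BU Gfra1+ levels. The log2 difference there was 1.96 ± 0.13 (SD, n = 2). In Kit+ cells Plaur had 0 UMIs in both CTRL libraries, where the small classes put the limit of 3 counts at 9.07 and 2.66 CPM, and 3.59 CPM (12 UMIs) and 3.63 CPM (31 UMIs) in BU 1 and BU 2. The BU 2 level stood 1.36-fold above the limit of CTRL 2, and the exact interval of the BU to CTRL ratio began at 1.04 in experiment 2 but at 0.275 in experiment 1, where no direction could be given.

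**Figure D1:**
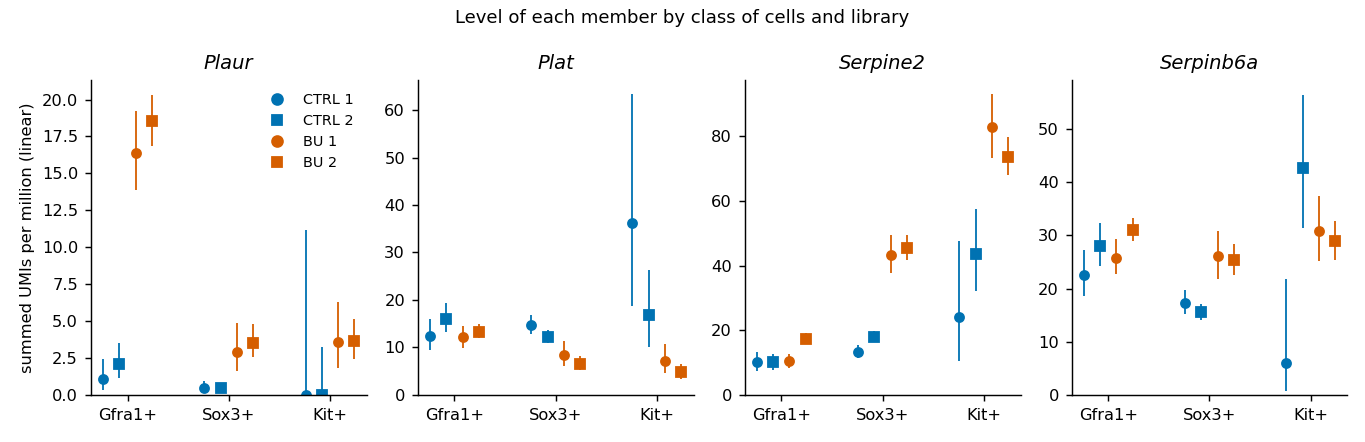
Levels of Plaur, Plat, Serpine2 and Serpinb6a in Gfra1+, Sox3+ and Kit+ cells, as summed CPM on a linear scale with its own range for each gene; each point is 1 library (blue CTRL, orange BU, circles experiment 1, squares experiment 2) and bars are exact 95% counting intervals. Plaur in Gfra1+ cells lies at 1.05 and 2.08 CPM in CTRL against 16.4 and 18.5 in BU, and Serpine2 is highest in BU Kit+ cells, at 82.9 and 73.7 CPM.

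The same order was seen in the share of cells with a Plaur UMI once each cell had been thinned to 5000 UMIs, which left out 276, 114, 80 and 95 shallower cells. Among Gfra1+ cells a Plaur UMI was found in 0.577% of CTRL 1 (3 of 520 cells), 1.44% of CTRL 2 (3 of 209), 6.37% of BU 1 (54 of 848) and 8.00% of BU 2 (42 of 525). The BU shares lay above the CTRL shares by 6.18 ± 0.55 percentage points (SD, n = 2). At full depth, where the cells of experiment 2 hold more UMIs, the shares were 0.855, 5.61, 12.9 and 35.5%. Among Sox3+ cells the thinned shares were 0.350, 0.157, 1.28 and 1.92%, and among Kit+ cells 0, 0, 0.940 and 1.29%. Spermatid-marked cells, which should lack the transcript, had a thinned Plaur UMI in 0 of 29, 0 of 64, 0 of 4 and 1 of 40 cells at median depths of 11048, 14843, 10000.5 and 14900.5 UMIs, where 3 counts would already be 10.3, 4.69, 75.0 and 7.50%. At full depth the spermatid-marked cells of BU 2 held 3 Plaur UMIs, or 1.97 CPM. These cells were too few to set a background below the shares of any class in BU, and the low shares in Sox3+ and Kit+ cells are not read as expression.

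**Figure D2:**
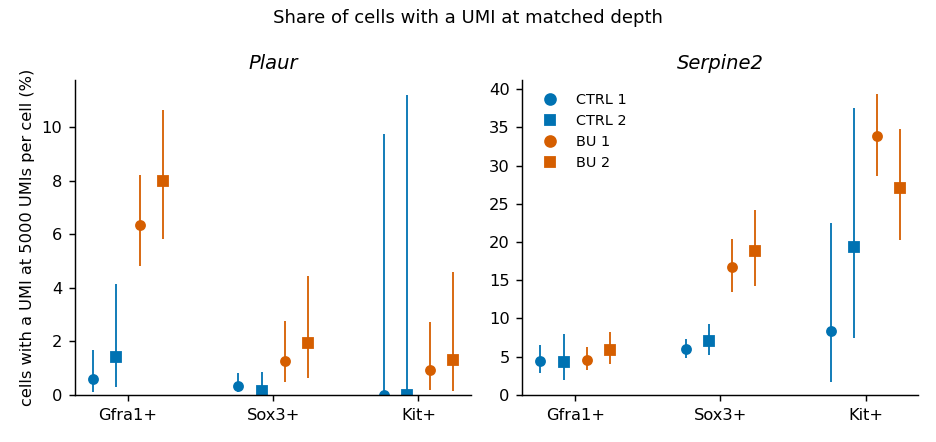
Percent of cells with at least 1 UMI of Plaur (left) or Serpine2 (right) after thinning each cell to 5000 UMIs, by class and library (blue CTRL, orange BU), with exact binomial 95% intervals. Plaur reaches 6.37 and 8.00% in BU Gfra1+ cells, while Serpine2 reaches 33.9 and 27.1% in BU Kit+ cells.

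Most Plaur-positive BU cells held few molecules. In BU 1, 137 cells held 1 Plaur UMI, 22 held 2 and 20 held 3 or more, up to 8. In the deeper BU 2, 127 cells held 1, 62 held 2 and 91 held 3 or more, up to 19, whereas no CTRL cell held more than 2.

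Plaur was uneven among the BU spermatogonia. Gfra1+ cells were 43.1 and 41.9% of the cells of BU 1 and BU 2 and held 60.0 and 65.6% of the Plaur UMIs. Sox3+ cells were 23.6 and 20.97% of the cells and held 5.88 and 6.29% of the UMIs. Cells in none of the 3 classes were 30.7 and 37.5% of the cells with 36.9 and 31.9% of the UMIs, so Plaur was also counted in cells with Gfra1 below the threshold. A deeper cell needs more Gfra1 UMIs to pass, so cells below the threshold may still hold some, and the classes are not quite alike in the 2 experiments. Split by both genes, the Plaur level was highest in cells with Gfra1 and no Sox3 above the threshold, at 1.23, 2.86, 17.7 and 19.8 CPM. Cells with both stood at 0.660, 1.04, 7.46 and 10.0 CPM, between the former and the cells with Sox3 alone, at 0.411, 0.402, 1.54 and 1.33 CPM. In cells with neither the level was 1.04, 0.758, 12.4 and 11.7 CPM. In Kit+ BU cells, 10 of the 12 Plaur UMIs of BU 1 and 25 of the 31 of BU 2 came from cells that were also Gfra1+. Of the Plaur UMIs of Sox3+ cells, 9 of 15 in BU 1 and 31 of 43 in BU 2 came from cells that were also Gfra1+. The median depth in BU 1 and BU 2 was 10759 and 77216 UMIs in Gfra1+ Kit+ cells. It was 11777.5 and 43719 in Gfra1+ Sox3+ cells, against 10268.5 and 38272 in all Gfra1+ cells. Doublets were not called, so cells positive for more than 1 of these genes may include them, and their part was not tested.

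**Figure D3:**
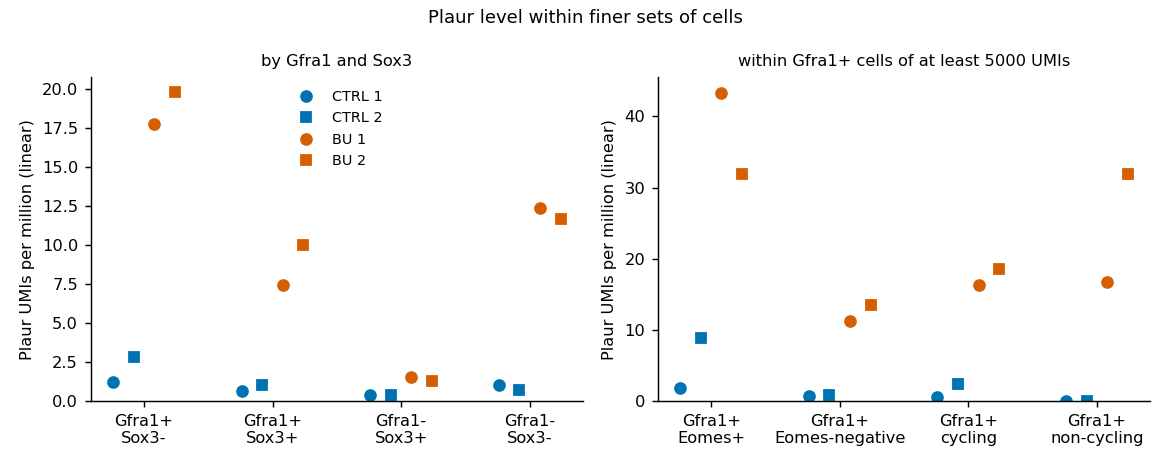
Plaur level (summed CPM, linear) in finer sets of cells, each point 1 library (blue CTRL, orange BU); left, cells split by Gfra1 and Sox3, and right, Gfra1+ cells of at least 5000 UMIs split by Eomes or by mitotic markers. In BU the level falls from 17.7 and 19.8 CPM in Gfra1+ Sox3- cells to 1.54 and 1.33 in Gfra1- Sox3+ cells, and is 43.3 and 31.9 CPM in Eomes+ cells; the non-cycling points rest on 12 to 41 cells.

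The choice of the genes did not use a split by Eomes, so the members were tested in it. This split was not blind, as the paper shows differing uPAR staining in EOMES+ cells of control and busulfan-treated testes. Eomes encodes a T-box transcription factor found in a subset of Gfra1+ spermatogonia. Gfra1+ cells of at least 5000 UMIs with an Eomes UMI after thinning (66, 17, 119 and 65 cells) were set against those with no Eomes UMI (420, 146, 625 and 241 cells) within each library. Plaur stood at 1.89 CPM (1 UMI), 8.95 (4 UMIs), 43.3 (54 UMIs) and 31.9 (95 UMIs) in Eomes+ cells and at 0.827 (3 UMIs), 0.884 (4 UMIs), 11.3 (76 UMIs) and 13.6 CPM (115 UMIs) in Eomes-negative cells. With under 10 UMIs on every side, the CTRL counts were too low to give a direction. Plaur was higher in the Eomes+ cells of both BU libraries. Over the 4 libraries the log2 difference was 1.67 ± 0.28 (SE, adjusted p = 0.00296) in edgeR with the library as a block. It rests mainly on the BU libraries, which held most of the Plaur UMIs. At matched depth 17.6% of Eomes+ (21 of 119) and 3.68% of Eomes-negative cells (23 of 625) of BU 1 held a Plaur UMI. In BU 2 these shares were 9.23% (6 of 65) and 5.39% (13 of 241).

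In this comparison 4.23% of the 12515 genes tested passed the threshold, and of the 4 members tested Plaur alone did. Serpine2 differed by 0.13 ± 0.26 (adjusted p = 0.883), Plat by -0.73 ± 0.30 (adjusted p = 0.238) and Serpinb6a by -0.49 ± 0.19 (adjusted p = 0.190). The Plaur call did not pass without BU 1 (log2 difference 1.53, adjusted p = 0.0787) or without the library block (adjusted p = 0.9997), and it passed in the BU libraries alone (1.55, adjusted p = 0.0042) and without somatic-marked cells (1.59, adjusted p = 4.25e-06).

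For Plaur, the split by cycling state could be measured in BU 2 alone. Gfra1+ cells with 3 or more thinned UMIs of 12 mitotic markers (363, 159, 716 and 412 cells) were compared with those that had 0 (27, 12, 26 and 41 cells). Plaur levels were 0.605 (2 UMIs), 2.42 (13 UMIs), 16.3 (131 UMIs) and 18.6 CPM (388 UMIs) in cycling cells. In non-cycling cells they were 0 (0 UMIs), 0 (0 UMIs), 16.8 (4 UMIs) and 31.8 CPM (33 UMIs), under 10 UMIs in all but BU 2. The log2 difference was -0.22 ± 0.52 (SE) with an edgeR adjusted p of 0.807, which on such counts does not show that a difference is absent. In this comparison 17.5% of the 12379 genes tested passed, and 2 of the 4 members tested, Plat and Serpinb6a, were lower in cycling cells. Plat stood at 13.9, 12.3, 11.2 and 10.1 CPM in cycling and 20.3, 99.4, 21.01 and 68.5 CPM in non-cycling cells (log2 difference -2.05 ± 0.42, adjusted p = 0.00622). Serpinb6a stood at 21.5, 17.5, 25.6 and 24.4 against 55.7, 154, 21.01 and 132 CPM (-1.89 ± 0.41, adjusted p = 0.00874). The high values were those of experiment 2, and without somatic-marked cells, which left 4 and 13 non-cycling cells in CTRL 2 and BU 2, the Plat difference was 0.02 (adjusted p = 0.991) and the Serpinb6a difference -0.09 (adjusted p = 0.943). Without BU 2 alone neither passed (adjusted p = 0.224 and 0.235).

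Plau, the urokinase that binds uPAR, was too low to measure in every class of every library, where under 10 UMIs was taken as too low. Its UMIs over all kept cells numbered 0 (CTRL 1), 2 (CTRL 2), 2 (BU 1) and 8 (BU 2), or at most 0.153 CPM. The 0 UMIs of CTRL 1 allow a level of up to 0.113 CPM (3 counts). Plau also failed the filter on low counts in every comparison. Plaur failed it between BU and CTRL in Kit+ cells, and in all other comparisons the other 4 members could be fitted.

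Plat, the tissue-type activator, was measurable in every class. Over all cells its level was 13.4, 12.02, 11.2 and 9.45 CPM, and in Gfra1+ cells 12.4, 16.04, 12.1 and 13.3 CPM, where the groups overlapped. The log2 difference in Gfra1+ cells was -0.14, but 0.355 without the shared barcodes and 0.037 without CTRL 2, so no direction is given there. In Gfra1+ cells without somatic-marked cells it was 12.3, 10.48, 11.3 and 9.83 CPM. In Sox3+ cells Plat was lower in both BU libraries, at 14.7 and 12.2 CPM in CTRL 1 and CTRL 2 against 8.42 and 6.59 CPM in BU 1 and BU 2. The BU to CTRL ratios there were 0.573 (0.402 to 0.800) and 0.541 (0.418 to 0.694), and the log2 difference was -0.80 ± 0.049 (SD, n = 2). The share of Sox3+ cells with a Plat UMI at matched depth went the same way, at 7.63, 5.64, 3.64 and 4.23%. In Kit+ cells Plat stood at 36.3 (12 UMIs), 16.9 (19 UMIs), 7.18 (24 UMIs) and 4.80 CPM (41 UMIs), with few cells and, in CTRL 2, the Leydig RNA given above. Somatic-marked cells held Plat at 21.02, 19.0, 59.1 and 16.6 CPM, above the level over all cells in each library, and spermatid-marked cells had 1 Plat UMI in CTRL 1 and 0 in the others.

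Serpine2, the inhibitor of uPA, tPA and thrombin known as protease nexin-1, was higher in both BU libraries over all cells and in Sox3+ cells. Its level over all cells was 11.5, 13.7, 27.3 and 24.7 CPM, with BU over CTRL at 2.36 (2.05 to 2.73) and 1.80 (1.63 to 2.00) in the 2 experiments. In Sox3+ cells it stood at 13.2, 18.0, 43.3 and 45.6 CPM, ratios of 3.27 (2.68 to 4.003) and 2.53 (2.23 to 2.87) and a log2 difference of 1.49 ± 0.25 (SD, n = 2). Both BU libraries were above both CTRL libraries there. In Gfra1+ cells the levels were 10.1, 10.1, 10.4 and 17.3 CPM, a log2 difference of 0.40 ± 0.50, no larger than its spread between experiments, and BU 2 stood at 12.1 CPM once somatic-marked cells were left out. In Kit+ cells Serpine2 reached 24.2 (8 UMIs), 43.5 (49 UMIs), 82.9 (277 UMIs) and 73.7 CPM (630 UMIs), its highest level of the 3 classes in CTRL 2, BU 1 and BU 2, while the 8 UMIs of CTRL 1 were too few to rank.

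At matched depth the share of Sox3+ cells with a Serpine2 UMI was 5.95, 7.05, 16.7 and 18.8%, that of Gfra1+ cells 4.42, 4.31, 4.60 and 5.90%, and that of Kit+ cells 8.33, 19.4, 33.9 and 27.1%. Kit+ cells were 16.04 and 12.3% of the cells of BU 1 and BU 2 and held 48.3 and 48.7% of their Serpine2 UMIs. In CTRL 1 and CTRL 2 they were 1.16 and 3.30% of the cells and held 2.61 and 9.32% of these UMIs. Of the 1470, 646, 473 and 265 Sox3+ cells, 24, 20, 134 and 86 were also Kit+, so the make-up of the Sox3+ class differed between CTRL and BU. Within Sox3+ cells the level in those that were also Kit+ was 30.9 (7 UMIs), 51.1 (35 UMIs), 87.1 (125 UMIs) and 82.2 CPM (393 UMIs), above that of all Sox3+ cells in each library but on too few UMIs in CTRL 1. In cells that were Sox3+ and Kit-negative as well as Gfra1-negative the BU minus CTRL difference of Serpine2 was 0.957 on the log2 scale, below the 1.49 of all Sox3+ cells. Spermatid-marked cells held 0, 1, 1 and 1 Serpine2 UMIs.

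Serpinb6a, an intracellular serpin that inhibits trypsin-like proteases, differed little between CTRL and BU in Gfra1+ cells. Its level there was 22.7, 28.1, 25.8 and 31.1 CPM, with overlapping groups. In Sox3+ cells it was 17.3, 15.5, 26.1 and 25.3 CPM, higher in both BU libraries, with ratios of 1.503 (1.21 to 1.87) and 1.63 (1.40 to 1.90) and a log2 difference of 0.63 ± 0.078 (SD, n = 2). On this scale the median of all genes measured shifted by 0.11 and 0.038 in Sox3+ cells of the 2 experiments. It shifted by -0.0038 and -0.13 in Gfra1+ cells. This median is a location and not a spread, so it does not show whether the Serpinb6a and Plat differences in Sox3+ cells are unusual. With the experiment as a block, edgeR called neither gene there. In Kit+ cells Serpinb6a was at 6.05 (2 UMIs, too low to measure), 42.6 (48 UMIs), 30.8 (103 UMIs) and 28.9 CPM (247 UMIs). Both sides therefore reached 10 UMIs in experiment 2 alone, where the Kit+ cells of CTRL 2 carried spermatid and Leydig RNA. In the Kit+ cells that were also Sox3+ the order was the reverse, at 10.2 CPM (7 UMIs) in CTRL 2 and 27.6 CPM (132 UMIs) in BU 2. The mean log2 difference in Kit+ cells was 0.85, and 1.40 without somatic-marked cells. No direction is given there. Spermatid-marked cells held Serpinb6a at 222, 117, 129 and 137 CPM, several times the level in the spermatogonial classes. The level over all cells, 24.2, 40.3, 28.3 and 48.5 CPM, was high in the same 2 libraries in which the spermatid markers were high (3193, 18216, 1149 and 9448 CPM). Leaving out cells with over 2% spermatid UMIs was among the alternatives, but its levels are not given here and no part is assigned to these cells.

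Ordered by class within the BU libraries, Plaur ran from Gfra1+ (16.4 and 18.5 CPM) down to Kit+ (3.59 and 3.63) and Sox3+ (2.94 and 3.54), where the counting intervals of the last pair overlapped. Serpine2 ran from Kit+ through Sox3+ down to Gfra1+ cells, so only the place of Gfra1+ cells was reversed. Plat stood at 12.1 and 13.3 CPM in Gfra1+ cells of BU, above both other classes beyond the counting intervals in BU 2, whereas the intervals of all 3 classes overlapped in BU 1 and those of Sox3+ and Kit+ cells in both. In Gfra1+ cells of BU at matched depth, Plat was found in 1 of 54 and 0 of 42 cells with a Plaur UMI, against 5.16 and 7.45% of the other cells. Serpine2 was found in 3.70 and 9.52% of the Plaur cells against 4.66 and 5.59%, and Serpinb6a in 11.1 and 14.3% against 11.6 and 14.9%, numbers too small to separate the members cell by cell.

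The members' fits can be read against all genes. With condition as the only term, edgeR called 0 of the 17354 genes tested over all cells (percent called 0), 0 in Gfra1+, 0 in Sox3+ and 0 in Kit+ cells, and none of the members. At an unadjusted p under 0.05 there were 926, 586, 2031 and 909 genes, and DESeq2 called 119, 15, 327 and 46. The library numbers mark a shared experiment, and with the experiment as a block edgeR called 258 genes over all cells (1.49%), 10 in Gfra1+ (0.0734%), 1061 in Sox3+ (7.34%) and 105 in Kit+ cells (0.952%). Plaur was among those called in all, in Gfra1+ and in Sox3+ cells, and Serpine2 among those in Sox3+ cells. No member was called in Kit+ cells, where Plaur and Plau could not be fitted. These values chose the members and are no test of them. Between Gfra1+ and Sox3+ cells within each library 31.4% of 14468 genes passed, and Plaur (higher in Gfra1+) and Serpine2 (lower) were among them.

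The other 76 genes of the system were read from 4 lists: activators, substrate and targets, receptors and co-receptors, inhibitors, and the LY6/uPAR domain family to which Plaur belongs. Those with a mean of at least 5 CPM are described. Between Gfra1+ (Sox3 below the threshold) and Sox3+ cells (Gfra1 below it), 25 of them reached this level, of which 11 were higher in Gfra1+ cells, 1 was lower and 13 did not pass in edgeR with the library as a block, beside the 31.4% of all genes that passed. Without the block 7 were higher and 0 lower, beside 948 of all genes. Their median log2 difference was 0.66 beside -0.01 over all genes tested. The shares of all genes given here and below have no cut at 5 CPM. At any level 41 list genes were tested, of which 16 were higher and 2 lower with the block.

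Among targets, 3 of 5 genes were higher in Gfra1+ cells. Mmp9, a secreted matrix protease, stood at 16.6, 11.95, 15.4 and 15.1 CPM in Gfra1+ and 4.36, 2.90, 4.36 and 4.43 CPM in Sox3+ cells (log2 difference 1.84 ± 0.17, adjusted p = 9.8e-05). Tgfb1, a growth factor released from its latent form by plasmin, differed by 1.59 ± 0.15 (adjusted p = 0.000144). Mmp14, a membrane-bound protease, differed by 0.97 ± 0.28 (adjusted p = 0.0276). Its log2 difference was 0.84 without the shared barcodes (adjusted p = 0.0618), 0.84 without CTRL 1 (0.0779), 0.71 without CTRL 2 (0.0988) and 0.92 without BU 1 (0.0695), in the same direction but not past the threshold.

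Among 10 receptors and co-receptors, 4 were higher and 1 lower. Itgav, the integrin subunit of vitronectin receptors, stood at 4.92, 9.09, 11.2 and 9.56 CPM in Gfra1+ and 0.822, 1.21, 3.85 and 3.76 CPM in Sox3+ cells (1.97 ± 0.28, adjusted p = 0.00113). Lrp1, which clears complexes of uPA and its inhibitors, differed by 1.70 ± 0.21 (adjusted p = 0.000585) and S100a10, part of the annexin A2 receptor of tPA, by 1.48 ± 0.22 (adjusted p = 0.0012). Itga6, which encodes the CD49f used in the sort, differed by 0.66 ± 0.11 (adjusted p = 0.00241). Eno1, a glycolytic enzyme that also binds plasminogen at the cell surface, was lower in Gfra1+ cells by 0.71 (log2 difference -0.71 ± 0.16, adjusted p = 0.00991).

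Among 4 inhibitors, 2 were higher in Gfra1+ cells. Timp1, an inhibitor of matrix metalloproteases, stood at 8.30, 7.54, 20.8 and 20.9 CPM in Gfra1+ and 2.30, 1.56, 5.64 and 3.43 CPM in Sox3+ cells (2.14 ± 0.21, adjusted p = 0.000158). Serping1, the C1 inhibitor, differed by 1.39 ± 0.34 (adjusted p = 0.0135) but by 0.06 without somatic-marked cells (adjusted p = 0.905) and by 1.25 without BU 2 (adjusted p = 0.0607). In the LY6/uPAR family 2 of 6 were higher: Ly6h by 1.83 ± 0.33 (adjusted p = 0.00338), and Ly6e by 1.96 ± 0.38 (adjusted p = 0.00481) but by 0.14 without somatic-marked cells (adjusted p = 0.791).

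**Figure D4:**
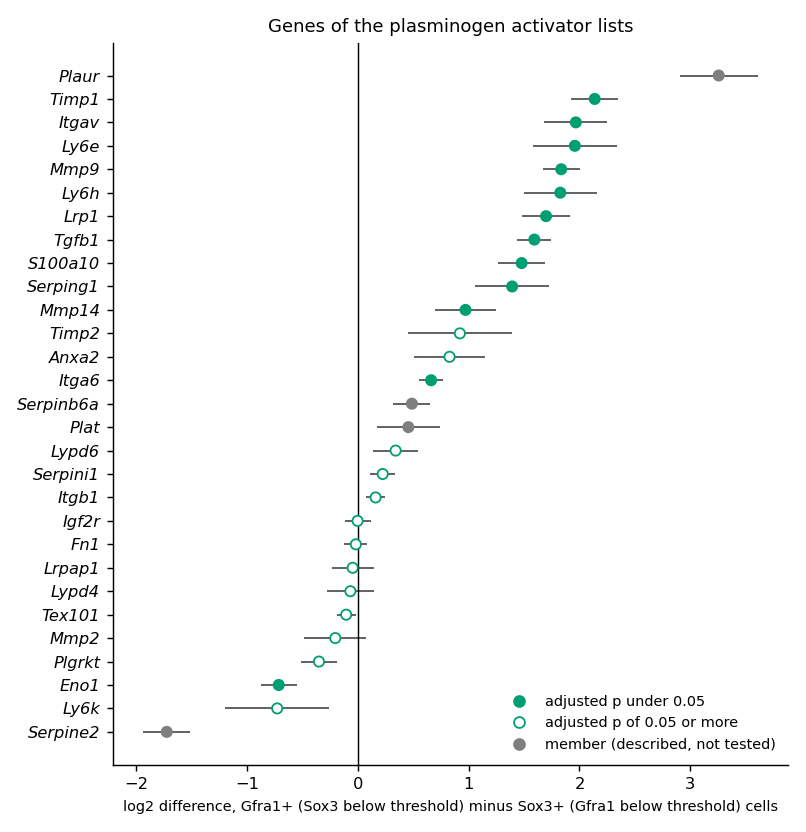
Log2 difference (with SE) between Gfra1+ and Sox3+ cells for the genes of the plasminogen activator lists with a mean of at least 5 CPM, 1 gene a line; filled green points passed an adjusted p of 0.05 in edgeR with the library as a block, open points did not, and grey points are the members, which are described and not tested. Plaur lies highest and Serpine2 lowest, with Timp1 (2.14) and Itgav (1.97) next to Plaur.

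Between BU and CTRL none of the list genes passed with condition alone. With the experiment as a block 2 of 23 passed over all cells (2 of the 49 tested at any level), beside 1.49% of all genes. Timp1 stood at 3.77, 2.92, 15.3 and 13.2 CPM (log2 difference 2.13 ± 0.28, adjusted p = 0.0289) and S100a10 at 9.21, 11.8, 26.4 and 38.5 CPM (1.65 ± 0.26, adjusted p = 0.0379). Both were higher in each BU library than in each CTRL library, and without the shared barcodes their log2 differences were 2.09 and 1.78 but neither passed (adjusted p = 0.283 for each). In Gfra1+ cells 0 of 27 passed even with the block, where Timp1 stood at 6.50, 6.83, 20.2 and 19.4 CPM (adjusted p = 0.0562).

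In Sox3+ cells 4 of 22 passed with the block (6 of the 42 tested at any level), beside 7.34% of all genes. Ly6k stood at 4.46, 3.01, 21.2 and 11.4 CPM (2.03 ± 0.25, adjusted p = 0.0172), Lrpap1, a chaperone of Lrp1, at 44.5, 35.4, 83.3 and 65.4 CPM (0.85 ± 0.18, adjusted p = 0.0388), and Mmp14 at 1.54, 3.84, 3.92 and 12.1 CPM (1.502 ± 0.30, adjusted p = 0.0351). Eno1 was lower, going from 492 and 336 CPM in CTRL to 219 and 223 CPM in BU (-0.92 ± 0.17, adjusted p = 0.0323). Without the shared barcodes the log2 differences were 1.95 for Ly6k, 0.83 for Lrpap1, 1.77 for Mmp14 and -0.79 for Eno1, and none of the 4 passed (adjusted p = 0.0837 to 0.193). That setting also left out many kept cells, as given above. In Kit+ cells Serping1, Timp2 and Ly6e of 22 genes were lower in BU with the block (adjusted p = 0.0253, 0.0178 and 0.0253), beside 0.952% of all genes, where the CTRL 2 cells carried the somatic RNA given above, and without somatic-marked cells Timp2 (-1.87) and Ly6e (-1.49) did not pass (adjusted p = 0.296 and 0.352) and Serping1 was too low to be fitted.

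Within Gfra1+ cells, 6 of 26 list genes were lower in Eomes+ than in Eomes-negative cells and 0 higher, beside the 4.23% of all genes that passed in either direction. Of the 34 list genes tested at any level, 8 were lower and 0 higher. Without the library block 0 passed. The 6 were Eno1 (-0.46 ± 0.087, adjusted p = 0.00715), Plgrkt, a plasminogen receptor (-1.46 ± 0.29, adjusted p = 0.00941), Anxa2, Timp2, Ly6e and Serping1. Without somatic-marked cells Eno1 (-0.37, adjusted p = 0.00271) and Plgrkt (-0.95, adjusted p = 0.0341) passed and the other 4 did not. Without BU 2 Eno1 passed (adjusted p = 0.00807), and Plgrkt (-1.07, adjusted p = 0.151), Anxa2 (-1.08, 0.151), Ly6e (-1.24, 0.154), Timp2 (-1.36, 0.197) and Serping1 (-0.44, adjusted p = 0.724) did not. Between cycling and non-cycling Gfra1+ cells 3 of the 33 list genes tested at any level were higher in cycling cells and 14 lower. Among the 28 with a mean of at least 5 CPM, 2 were higher (Fn1 and Tex101) and 14 lower, beside the 17.5% of all genes that passed in either direction. Of these 16, 12 could be fitted without somatic-marked cells and 0 of them passed, beside an adjusted p of at least 0.226.

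The genes whose pattern was most like that of Plaur were sought over the 12 sums of 4 libraries and 3 classes in 8860 genes with a mean of at least 10 CPM, by Pearson's r of log2(CPM + 1). S100a6, a calcium-binding protein, had r = 0.963, Kif21a, a kinesin, 0.962, Arpc2, a subunit of the actin-nucleating Arp2/3 complex, 0.941, Mt2, a metallothionein, 0.940, and Fam81a 0.940. The 3 sums of a library share its cells and depth, so the 12 points are not independent. Plaur was also under 10 UMIs in the Gfra1+ and Sox3+ cells of CTRL 1 (5 and 6 UMIs). In Kit+ cells of CTRL 1 and CTRL 2 it had 0 UMIs, with limits of 9.07 and 2.66 CPM. The values of r thus rest partly on levels too low to measure. In S100a6 the levels were 13.8, 21.7, 60.5 and 83.3 CPM in Gfra1+ and 8.70, 7.87, 19.4 and 32.5 CPM in Sox3+ cells. The partners stood lower in this order, with r = 0.435 for Serpinb6a, -0.044 for Serpine2 and -0.438 for Plat.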

How the data were processed

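UMI counts per gene and cell were deposited by the authors as the filtered output of Cell Ranger for all 4 libraries, without normalisation. Per the paper the reads were aligned to mm10, whereas the submitters' processing notes name GRCm39 and Seurat 3.2, and coordinates here are those of GENCODE on GRCm38. The labels give 3′ chemistry V2 for experiment 1 and V3.1 for experiment 2, while the paper gives V2 for all. The feature tables listed 27998 genes in experiment 1 and 31053 in experiment 2, and the 27514 listed in all libraries by identifier were used.

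The study's filters on cells (over 1000 genes, under 20% of UMIs from mitochondrial genes) were applied, and doublets were not called. The study's later removal of somatic, spermatid and high-Kit clusters was not repeated, so the kept cells are a wider set than the study's A_undiff. UMIs were summed per library and class. Levels are counts per 1000000 UMIs (CPM) with exact Poisson 95% intervals, shares have exact binomial 95% intervals, and shares at matched depth were taken after random thinning of cells to 5000 UMIs. Differences of the members between conditions are means over the 2 experiments of log2(CPM + 0.5). Counts were tested in edgeR 4.0.16 (filterByExpr, TMM, quasi-likelihood test, R 4.3.3) with Benjamini-Hochberg adjustment over all genes and a threshold of 0.05. BU against CTRL had condition as its only term and contrasts within libraries had the library as a block. DESeq2 1.42.0, other filters and scalings, left-out libraries and left-out cells were alternatives, and those on shared barcodes, on somatic-marked cells in gene counts, on the median split and on BU libraries alone were chosen after seeing the data.

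The labels tie a library's number to a kit and a sequencing lane, so libraries with the same number were treated as a pair. Across 17354 genes, same-numbered libraries deviated together from the means of their groups (r = 0.779), and PC1, with 70.5% of the variance, split the experiments.

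The members, the 4 gene lists and the marker lists were chosen with earlier results of these data known. Genes named are the members, the list genes with a mean of at least 5 CPM that passed with or without the block, and the 5 genes most like Plaur. A gene of the inhibitor list is not reported here and is left out of the list counts. On simulated data for BU against CTRL in all cells (16918 genes), the fit without the block recovered 2.08% of genes changed by 2-fold, 2.04% by 4-fold, 40.8% by 8-fold and 85.4% by 16-fold. For Gfra1+ against Sox3+ cells (14075 genes) it recovered 83.7% at 2-fold and 100% at 4-fold.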

Additional observations from a re-analysis of the deposited data

How the results depend on the processing

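The number of libraries limits every difference between CTRL and BU, and counts under 10 UMIs limit Plau in every class and Plaur in the Gfra1+ and Sox3+ cells of CTRL 1 and the Kit+ cells of both CTRL libraries, as well as Serpine2 and Serpinb6a in the Kit+ cells of CTRL 1. Of 183 recomputed log2 differences of the members between BU and CTRL, 131 moved by no more than the spread between experiments and 46 by more. Another 6 changed sign where the 2 experiments agreed in direction. Where they disagreed, a change of sign was counted by its size alone. This held for Serpinb6a in Kit+ cells, at 0.85 and at -0.51 to 2.21 when a library was left out. The cause of the changes given here was not tested. The Plaur difference over all cells was 3.48 without shared barcodes and 3.32 to 3.42 when a library was left out. The Plaur share in Gfra1+ cells, 6.18 points higher in BU, was 5.29 without shared barcodes, 3.76 with cells thinned to 3000 UMIs, 11.3 at 10000, 6.80 from another random start, 21.005 without thinning and 5.36 to 6.99 when a library was left out. The Serpine2 difference in Sox3+ cells was 0.957 in cells of that class alone.

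Small differences of the partners changed sign. The log2 difference of Plat in Gfra1+ cells was -0.14, but 0.047 in cells of 1 class, 0.355 without shared barcodes and -0.325 to 0.037 when a library was left out (0.037 without CTRL 2). The Serpine2 share in Gfra1+ cells was 0.887 points higher in BU, but -0.115 without somatic-marked cells, -1.37 at 10000 UMIs and -0.260 from another random start. The Serpinb6a difference over all cells, 0.24, was -0.14 to 0.63 when a library was left out (-0.12 without CTRL 1 and -0.14 without BU 2), and in Gfra1+ cells it was -0.037 (share -0.082 points) in cells of 1 class.

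With the experiment as a replicate block, edgeR called 258 genes over all cells, 10 in Gfra1+, 1061 in Sox3+ and 105 in Kit+ cells, against 0 in each without it. The block without low-UMI copies of shared barcodes gave 264, 3, 1040 and 75, without somatic-marked cells 327, 134, 986 and 6, and with DESeq2 722, 58, 754 and 46. Without all shared barcodes the block gave 0 over all cells, 0 in Gfra1+, 26 in Sox3+ and 489 in Kit+ cells. DESeq2 without the block called 119, 15, 327 and 46 genes, and edgeR with no filter on low counts 49 in Gfra1+, 352 in Sox3+ and 564 in Kit+ cells. Leaving out a library gave 0 to 96, 0 to 25, 10 to 915 and 0 to 886, so CTRL 2 (915 in Sox3+ cells without it) and CTRL 1 (886 in Kit+ cells without it) decided the most. With 1 library left in a group, its spread was assumed to be that of the other group.

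Without the library as a replicate block, Gfra1+ against Sox3+ cells gave 948 genes in place of 4544, cycling against non-cycling cells 700 in place of 2166 and Eomes+ against Eomes-negative cells 0 in place of 530 (484 at an unadjusted p under 0.05). Leaving out a library gave 2947 to 3915, 164 to 2611 and 231 to 389, the lowest without BU 2, BU 2 and CTRL 2. The cycling comparison gave 3438 with no filter, 705 without somatic-marked cells, 1050 in BU libraries alone and 3385 with the split at the median. The Eomes comparison gave 222 with DESeq2, 915 with no filter and 181 in BU libraries alone. The Plaur difference by Eomes was 1.77 without the replicate block and 1.53 to 2.02 when a library was left out. Without somatic-marked cells the signs between cycling and non-cycling cells turned for S100a10 (0.84, and 0.063 with the split at the median), Plat (0.021), Anxa2 (0.65), Serpinb9 (1.99) and Ly6h (0.58), and for Serping1 by Eomes (0.46).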

Other observations

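Since few Gfra1+ cells lacked mitotic UMIs, the mitotic UMIs were also split at each library's median, a split chosen after seeing the data. With the library as a block, edgeR called 3385 of the 12846 genes tested, so a call was common in this split. Plaur stood at 0.907, 3.47, 19.4 and 17.8 CPM above the median and 0.872, 0.614, 13.2 and 19.7 CPM at or below it in CTRL 1, CTRL 2, BU 1 and BU 2, and did not pass (log2 difference 0.35, adjusted p = 0.287). It was higher above the median in CTRL 2 and BU 1 and lower in BU 2, while CTRL 1 held 2 UMIs on each side. Serpine2 was higher above the median in 4 of 4 libraries, at 11.8, 12.1, 11.5 and 18.8 against 9.60, 7.98, 9.26 and 15.0 CPM (0.45, adjusted p = 0.0454). Serpinb6a was lower above it in 4 of 4, at 21.3, 18.5, 25.1 and 24.2 against 23.99, 37.4, 25.7 and 41.5 CPM (-0.48, adjusted p = 0.0289), and Plat did not pass (-0.28, adjusted p = 0.376). The Serpinb6a differences were those of experiment 2, whose Gfra1+ cells also carried more Sertoli and immune markers, and their part in it was not tested.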
